A study of Mus musculus with 18 samples.

Results

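RNA of splenocytes was compared between mice modulated with LPPC/MP carrying an antibody against CTLA4 and mice that had received LPPC/MP alone. The members are the 6 libraries whose labels give the treatment LPPC/mp/CD152 (LMS 1 to 6), CD152 being another name of CTLA4, and they were set against the 3 libraries labelled LPPC/mp (LM 1 to 3). These 9 are among 18 libraries of the series, and the others, 6 after LPPC/MP/CD28 (LMA) and 3 without treatment (N), serve here only to estimate the spread and to give background levels. LPPC, a liposome with polyethylene glycol and polyethylenimine, adsorbs proteins onto its surface. MP stands for membrane proteins prepared from antigen-loaded dendritic cells. All mice carry the label C57BL/6J, female and spleen, and the labels give an age of 4 to 6 weeks, while the methods of the study give an older range. LMS mice were first immunized and boosted with LPPC/MP as LM mice were, then received LPPC/MP with the anti-CTLA4 antibody, and their spleens were taken in a later week. The further doses, the later week and the antibody cannot be told apart, since none of the 9 libraries is labelled as a modulation with LPPC/MP without an antibody. Which LMS libraries had 1 modulation and which had 2 is not in the labels. The protocol fields describe B16F10 melanoma tumours extracted with Trizol, which does not match the labelled tissue. Nothing states that the libraries came from separate animals, so every p-value measures only the spread between these libraries, which may be technical.

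CTLA4 is an inhibitory receptor that T cells display after activation and that competes with the costimulatory receptor CD28 for the ligands CD80 and CD86. The spleen holds T cells and B cells in its white pulp, macrophages and erythroid cells in its red pulp, and neutrophils and monocytes that pass through or are stored there. When myeloid cells sense microbial or damage signals through Toll-like receptors, the transcription factor NF-kB drives cytokine, chemokine and acute-phase genes together with inhibitors that end its own activity. RNA of the whole cell suspension was measured, so fewer cells of a type and less RNA per cell cannot be told apart in any result below.

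Before any comparison, the LMS libraries fell into 2 sets. Cd3e, a chain of the T cell receptor complex, was at 2.76, 55.5, 4.02, 4.51, 55.8 and 5.58 FPKM in LMS 1 to 6, against 12.6, 15.6 and 12.95 FPKM in LM 1 to 3. LMS 2 and LMS 5 thus stood above all LM libraries in this T cell marker, while LMS 1, 3, 4 and 6 were lower than any LM library. Lyz2, the lysozyme of myeloid cells, went the other way, at 2743, 274, 2654, 2661, 267 and 2589 FPKM in LMS 1 to 6, against 1441, 1386 and 1424 FPKM in LM 1 to 3. Summed over the lists, T cell markers were at 894 and 905 FPKM in LMS 2 and LMS 5, 72.9 to 162 FPKM in the other LMS libraries and 198 to 274 FPKM in LM. The summed level of macrophage markers was 564 and 556 FPKM in LMS 2 and LMS 5, 3328 to 3493 FPKM in the other LMS libraries and 2186 to 2287 FPKM in LM. Markers of mature neutrophils summed to 629 and 686 FPKM in LMS 2 and LMS 5, 241 to 393 FPKM in the other LMS libraries and 1255 to 1414 FPKM in LM, and markers of splenic stroma and endothelium to 43.7 and 39.1 FPKM in LMS 2 and LMS 5, 1.84 to 3.92 FPKM in the other LMS libraries and 61.2 to 91.6 FPKM in LM. The part of these cell types in the results below was not tested. Hemoglobin transcripts took 16.9% and 17.2% of the FPKM in LMS 2 and LMS 5, between 0.148% and 0.301% in the other LMS libraries and between 1.27% and 1.85% in LM. The N libraries, used below for untreated levels, were uneven too. Hemoglobin took 0.671%, 18.4% and 0.0308% of the FPKM in N 1 to 3. Summed T cell markers ranged from 14.1 to 1536 FPKM in N, and macrophage markers from 582 to 3659 FPKM. Eif2s3y, a Y-linked gene, was at 41.5, 0, 40.3, 40.1, 0 and 36.5 FPKM in LMS 1 to 6, against 34.1, 31.0 and 36.1 FPKM in LM 1 to 3. Xist, which inactivates an X chromosome in female cells, was at 1.49, 59.9, 2.14, 2.04, 58.4 and 2.69 FPKM in LMS 1 to 6, against 5.29, 6.69 and 4.98 FPKM in LM 1 to 3. Transcripts of the Y chromosome in 7 of the 9 libraries go against the label female. Of the 7 melanocyte markers Tyr and Dct were at 0 in all 9 libraries, and the sum of the list was at 1.34 to 17.7 FPKM in LMS, against 12.1 to 14.9 FPKM in LM, with Mitf, which macrophages express too, as the main member except in LMS 2 and LMS 5. Within a set the libraries were close: over 5195 genes that averaged 10 FPKM or more, the median absolute log2 ratio was 0.06 between LMS 2 and LMS 5, between 0.05 and 0.08 for pairs of LMS 1, 3, 4 and 6, and between 0.05 and 0.08 for pairs of LM. Across the 2 LMS sets it was between 0.62 and 0.65. The main counts below are therefore also given without LMS 2 and LMS 5, and without LMS 1, 3, 4 and 6.

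**Figure D1:**
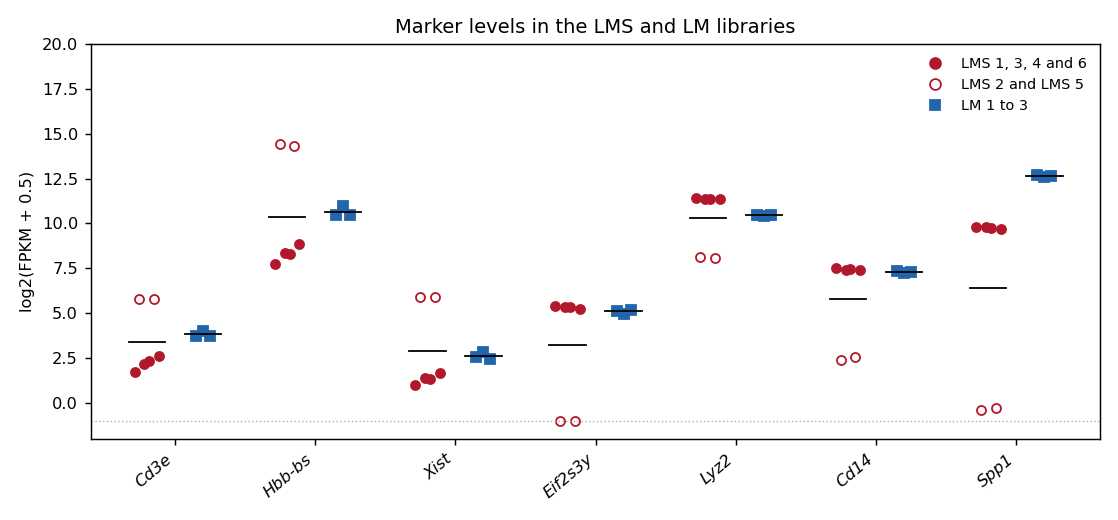
Level of marker genes as log2(FPKM + 0.5) in each LMS library (circles, LMS 2 and LMS 5 open) and each LM library (squares), with black bars for the group means on this scale and a dotted line at 0 FPKM. LMS 2 and LMS 5 lie above LM in Cd3e, Hbb-bs and Xist and below it in Eif2s3y, Lyz2, Cd14 and Spp1.

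In LMS, 1525 genes rose and 908 fell against LM, out of 11436 protein-coding genes that averaged 0.5 FPKM or more. The 2433 calls were 21.3% of the genes tested, 13.3% higher and 7.94% lower, by limma on log2(FPKM + 0.5) with an adjusted p under 0.05. FPKM counts fragments per kilobase of gene, scaled to the mapped fragments of the library. Fold changes on the log2(FPKM + 0.5) scale, given below as log2 changes with their standard error (SE), understate the change of low genes. The falls were steeper than the rises, since 342 genes fell and 129 rose by more than 2-fold. No LMS library overlapped any LM library in 3749 genes (32.8%), 2199 higher (19.2%) and 1550 lower (13.6%), and 2334 of the called genes were among them. These shares over all genes are the background for the counts of list members below. Over all genes the median log2 fold change was 0.10, and median-of-ratios scaling shifted it by -0.08 and gave 47.7% of calls higher, in place of 62.7%. That split therefore depended on the scaling, while no called gene changed its sign under the scalings, filters or subsets tried.

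Each subset of LMS was then compared with LM without the other LMS libraries. The LMA and N libraries stayed in these fits and helped to set the spread, also where a subset is said below to be taken alone. The N libraries were uneven in cell type markers, with summed B cell markers at 38.1 to 2567 FPKM, which widens the spread used for such genes. LMS 1, 3, 4 and 6 gave 3131 calls (27.4%), 2099 higher (18.4%) and 1032 lower (9.02%). With LMA and N left out as well, a fit chosen after seeing the data, LMS 1, 3, 4 and 6 gave 7658 calls, 4613 higher and 3045 lower. A gene not called in a subset may therefore still differ there. LMS 2 and LMS 5 gave 6258 calls (54.7%), 3209 higher (28.1%) and 3049 lower (26.7%). No library of LMS 1, 3, 4 and 6 overlapped LM in 7663 genes (67%), and neither LMS 2 nor LMS 5 did in 10054 (87.9%). With the replicate number as a block, all 6 LMS libraries gave 1893 calls (16.6%), 1145 higher (10%) and 748 lower (6.54%). Of the 2433 genes called over all 6 libraries, 2144 were called in the same direction in LMS 1, 3, 4 and 6, 1958 in LMS 2 and LMS 5, and 1679 in both, 1009 higher and 670 lower. Across all genes tested, the subsets gave log2 fold changes of opposite sign in 5371 genes (47.0%), and 31 genes were called in opposite directions. Both subsets share the LM libraries, so these counts are not independent.

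**Figure D2:**
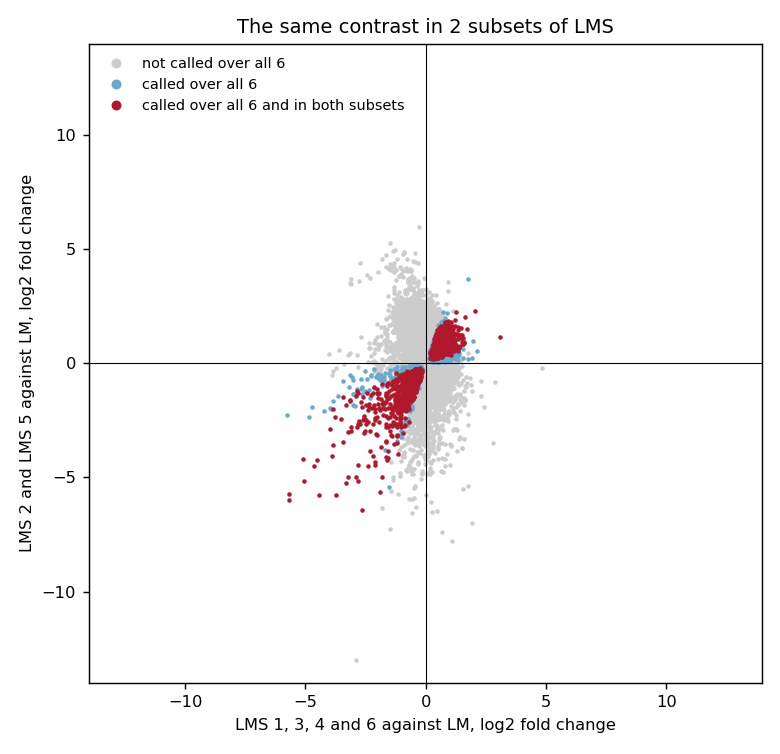
Log2 fold change against LM of each of the 11436 genes in LMS 1, 3, 4 and 6 (x axis) and in LMS 2 and LMS 5 (y axis), both against the same 3 LM libraries. The 1679 genes called over all 6 LMS libraries and in both subsets lie in the lower left (670 genes) and the upper right (1009 genes).

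The 10 called genes with the largest falls and no overlap included Saa3, Urah, Wfdc17, Il1rn, Lipg, Il10 and Ptgs2. Saa3 encodes an acute-phase serum amyloid and was at 0.369, 0.268, 0.733, 0.348, 0.383 and 0.602 FPKM in LMS 1 to 6, against 54.3, 48.3 and 51.9 FPKM in LM 1 to 3. Saa3 had a log2 change of -5.79 ± 0.16 (SE, adjusted p = 3.5e-13). All 6 LMS libraries were thus within the 0.237 to 0.759 FPKM of the untreated libraries. Wfdc17, a secreted protein of activated macrophages, was at 4.23, 4.21, 5.06, 4.64, 4.82 and 5.48 FPKM in LMS 1 to 6, against 186, 169 and 178 FPKM in LM 1 to 3. For Wfdc17, the log2 change was -5.09 ± 0.12 (SE, adjusted p = 3.0e-14). N libraries were at 3.36 to 5.63 FPKM. Il1rn, which blocks the IL-1 receptor, was at 6.56, 1.95, 7.28, 8.14, 3.04 and 6.19 FPKM in LMS 1 to 6, against 167, 149 and 163 FPKM in LM 1 to 3. Il1rn differed by -4.86 ± 0.35 in log2 (SE, adjusted p = 1.1e-07). LMS 2 and LMS 5 were the lowest in Il1rn, and still no LMS library came near LM. Urah, 5-hydroxyisourate hydrolase of urate breakdown, was listed at 0 in LMS 1 to 5 and at 0.0175 FPKM in LMS 6, against 24.8, 25.4 and 26.7 FPKM in LM 1 to 3 (log2 change -5.70 ± 0.07 SE, adjusted p = 4.1e-18), and it was listed at 0 in all 3 N libraries. Lipg, endothelial lipase, was at 0.0281, 0.0679, 0.00900, 0.00956, 0.0536 and 0 FPKM in LMS 1 to 6, against 12.6, 11.4 and 12.6 FPKM in LM 1 to 3. Lipg had a log2 change of -4.59 ± 0.08 (SE, adjusted p = 9.8e-16). Il10, the anti-inflammatory cytokine, was at 0.188, 0.454, 0.274, 0.295, 0.356 and 0.170 FPKM in LMS 1 to 6, against 16.5, 15.9 and 16.5 FPKM in LM 1 to 3. For Il10, the log2 change was -4.42 ± 0.11 (SE, adjusted p = 5.3e-14). N libraries were at 0.292 to 0.501 FPKM and LMA libraries at 16.2 to 18.4 FPKM. All 6 LMS libraries were within the range of the 3 N libraries, which were uneven in cell markers, or below it, and far from LM. Ptgs2, the inducible cyclooxygenase of prostaglandin synthesis, was at 6.46, 1.26, 6.39, 6.78, 1.22 and 6.77 FPKM in LMS 1 to 6, against 97.6, 88.3 and 93.5 FPKM in LM 1 to 3. Ptgs2 differed by -4.40 ± 0.52 in log2 (SE, adjusted p = 1.7e-05). In GENCODE M21 (GRCm38), Saa3 (ENSMUSG00000040026) lies on chromosome 7 from 46711998 to 46715700, Il1rn (ENSMUSG00000026981) lies on chromosome 2 from 24336853 to 24351494, Wfdc17 (ENSMUSG00000069792) lies on chromosome 11 from 83703991 to 83706268, Il10 (ENSMUSG00000016529) lies on chromosome 1 from 131019845 to 131024974 and Ptgs2 (ENSMUSG00000032487) lies on chromosome 1 from 150100031 to 150108227.

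The other 3 of these 10 were Ccl21a, Cxcl13 and Clu. Ccl21a, a chemokine of T zone stroma, was at 0.0522, 1.05, 0.202, 0.0511, 0.387 and 0.153 FPKM in LMS 1 to 6, against 16.2, 27.2 and 20.1 FPKM in LM 1 to 3. Ccl21a had a log2 change of -4.80 ± 0.83 (SE, adjusted p = 5.2e-04). Cxcl13, the chemokine of B cell follicles, was at 0.108, 4.12, 0.312, 0.295, 3.16 and 0.198 FPKM in LMS 1 to 6, against 16.8, 27.96 and 18.2 FPKM in LM 1 to 3. For Cxcl13, the log2 change was -4.02 ± 1.02 (SE, adjusted p = 0.00924). Clu, the secreted chaperone clusterin, was at 0.192, 8.57, 0.647, 0.0389, 6.44 and 0.103 FPKM in LMS 1 to 6, against 30.6, 48.8 and 35.7 FPKM in LM 1 to 3. Clu differed by -4.58 ± 1.23 in log2 (SE, adjusted p = 0.0134). Cxcl13 and Clu were higher in LMS 2 and LMS 5 than in the other LMS libraries, and against LM those libraries alone gave an adjusted p of 0.137 for Cxcl13 and 0.199 for Clu. The call of Clu was also lost without LM 2 (adjusted p = 0.0575). Ccl21a and Clu were uneven over the LMA libraries as well, with 0 to 9.95 FPKM for Ccl21a and 0.178 to 20.4 FPKM for Clu. Reads of Ccl21a can be shared with near-identical copies, which makes its level uncertain.

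**Figure D3:**
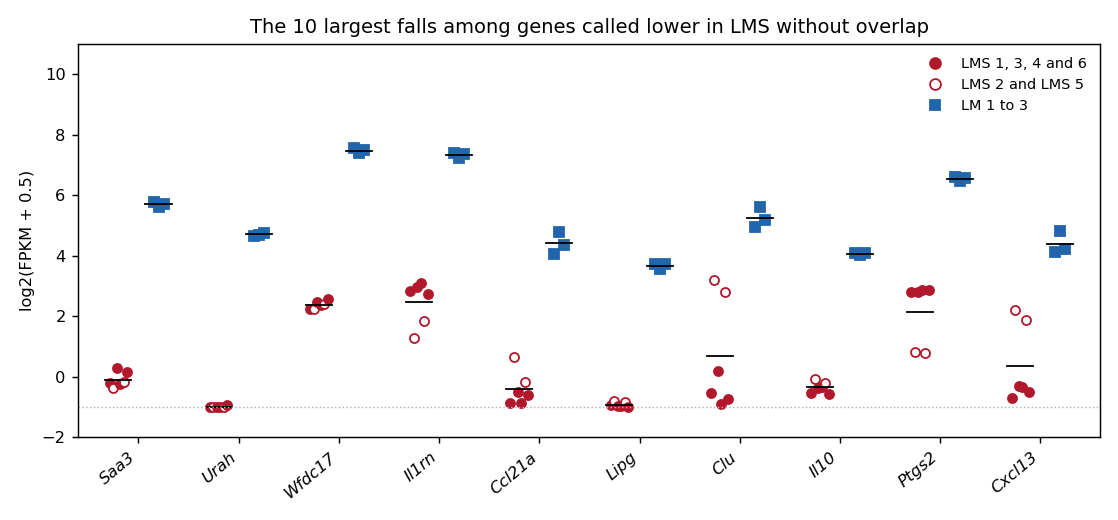
The 10 called genes with the largest falls among those with no overlap, as log2(FPKM + 0.5) in each LMS library (circles, LMS 2 and LMS 5 open) and each LM library (squares), with bars for group means on this scale and a dotted line at 0 FPKM. Saa3, Urah, Wfdc17, Lipg and Il10 lie close together in all 6 LMS libraries, while Clu and Cxcl13 are split between the 2 sets.

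Genes of the IL-1 and IL-10 families fell more often than they rose. Of 15 IL-1 family genes tested, 2 rose and 4 fell, with a median log2 fold change of -0.10 against 0.10 over all genes. Il33, an alarmin, was at 0, 0.104, 0, 0, 0.0821 and 0 FPKM in LMS 1 to 6, against 3.34, 2.48 and 3.04 FPKM in LM 1 to 3. Il33 had a log2 change of -2.70 ± 0.13 (SE, adjusted p = 6.4e-10). Il18, which is cut by caspase-1, was at 9.58, 11.9, 11.4, 9.63, 11.5 and 9.80 FPKM in LMS 1 to 6, against 15.6, 16.2 and 15.3 FPKM in LM 1 to 3. For Il18, the log2 change was -0.55 ± 0.10 (SE, adjusted p = 7.6e-04). Casp1, the protease that matures both IL-1β and IL-18, fell by a smaller step, to 19.8 to 22.4 FPKM in LMS, against 27.3 to 29.3 FPKM in LM. Casp1 differed by -0.403 ± 0.07 in log2 (SE, adjusted p = 3.8e-04). The 2 that rose, Myd88 and Il1rap, were no longer called with the replicate number as a block (adjusted p = 0.0559 and 0.0801). Myd88, the adaptor of the IL-1 and Toll-like receptors, was at 20.9, 15.6, 21.2, 22.1, 16.2 and 22.3 FPKM in LMS 1 to 6, against 13.7, 13.8 and 14.95 FPKM in LM 1 to 3. Myd88 had a log2 change of 0.45 ± 0.12 (SE, adjusted p = 0.0141). Il1rap, the shared receptor chain, was at 2.80 to 3.44 FPKM in LMS, against 2.25 to 2.45 FPKM in LM. For Il1rap, the log2 change was 0.34 ± 0.10 (SE, adjusted p = 0.0246). Without single libraries, calls were lost for Myd88 (2 of 9, up to 0.0653 without LM 1) and Il1rap (3 of 9, up to 0.11 without LM 1), giving in brackets how many of the 9 omissions ended the call and the highest adjusted p.

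In the family of IL-6, IL-10 and IL-12, 1 of 13 genes rose and 4 fell. Besides Il10, both subunits of IL-27 fell. Il27 was at 0.746, 0.221, 0.568, 0.562, 0.0914 and 0.339 FPKM in LMS 1 to 6, against 2.99, 2.38 and 2.96 FPKM in LM 1 to 3. Il27 differed by -1.87 ± 0.23 in log2 (SE, adjusted p = 2.8e-05). Ebi3 was at 7.29, 5.86, 8.88, 8.69, 4.90 and 9.41 FPKM in LMS 1 to 6, against 24.02, 21.3 and 21.5 FPKM in LM 1 to 3. Ebi3 had a log2 change of -1.54 ± 0.18 (SE, adjusted p = 1.5e-05). Il6 itself was low in all libraries, at 0.0161, 0.199, 0.0513, 0.119, 0.464 and 0.0833 FPKM in LMS 1 to 6, against 0.396, 0.807 and 0.513 FPKM in LM 1 to 3. For Il6, the log2 change was -0.72 ± 0.21 (SE, adjusted p = 0.0232). LMS 5 overlapped LM in Il6, and its call was lost without LM 2 (adjusted p = 0.145) and LM 3. Il6ra, the receptor of IL-6, was the gene that rose, at 12.1, 13.6, 9.86, 11.3, 14.7 and 11.3 FPKM in LMS 1 to 6, against 6.18, 7.85 and 7.70 FPKM in LM 1 to 3. Il6ra differed by 0.704 ± 0.14 in log2 (SE, adjusted p = 0.00159). Csf3, the growth factor of neutrophils, was the only 1 of 12 colony-stimulating factor genes called, at 0, 0.0669, 0.0268, 0.0260, 0.0236 and 0.0315 FPKM in LMS 1 to 6, against 2.92, 3.08 and 3.70 FPKM in LM 1 to 3. Csf3 had a log2 change of -2.81 ± 0.11 (SE, adjusted p = 8.2e-11).

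Of 12 CC and 9 CXC chemokines tested, 5 and 4 fell and none rose. These were Ccl3, Ccl4, Ccl7 and Cxcl2, which are inflammatory chemokines, Pf4 and Ppbp of platelets, and Ccl19, Ccl21a and Cxcl13 of stroma. Ccl3 and Ccl4 recruit monocytes and T cells. Ccl3 was at 105, 6.06, 107, 99.5, 7.89 and 97.8 FPKM in LMS 1 to 6, against 668, 599 and 643 FPKM in LM 1 to 3. For Ccl3, the log2 change was -3.89 ± 0.94 (SE, adjusted p = 0.00684). Ccl4 was at 15.98, 4.31, 15.9, 17.2, 4.61 and 16.8 FPKM in LMS 1 to 6, against 161, 146 and 167 FPKM in LM 1 to 3. Ccl4 differed by -3.81 ± 0.47 in log2 (SE, adjusted p = 2.4e-05). Both were lowest in LMS 2 and LMS 5, while the LM libraries lay close together. Ccl7, a ligand of CCR2, was at 0.151, 0, 0.0755, 0.118, 0 and 0.111 FPKM in LMS 1 to 6, against 2.49, 1.79 and 2.13 FPKM in LM 1 to 3. Ccl7 had a log2 change of -2.19 ± 0.17 (SE, adjusted p = 2.2e-07). Ccl2, the main CCR2 ligand, did not pass the test, at 4.54, 0, 4.64, 4.46, 0.144 and 4.65 FPKM in LMS 1 to 6, against 8.92, 9.31 and 8.70 FPKM in LM 1 to 3. For Ccl2, the log2 change was -1.96 ± 0.82 (SE, adjusted p = 0.106), although no LMS library reached LM. Cxcl2, which attracts neutrophils, was at 4.59, 0.704, 6.23, 6.20, 0.237 and 8.10 FPKM in LMS 1 to 6, against 13.2, 14.005 and 16.1 FPKM in LM 1 to 3. Cxcl2 differed by -2.10 ± 0.65 in log2 (SE, adjusted p = 0.0298), and its call was lost without LMS 2 and without any single LM library (adjusted p up to 0.104 without LM 3). The CXC chemokines of platelets, Pf4 and Ppbp, fell as well. Pf4 was at 0.342 to 5.08 FPKM in LMS, against 11.3 to 16.8 FPKM in LM. Pf4 had a log2 change of -2.90 (adjusted p = 0.00393). Ppbp was at 0.158 to 4.77 FPKM in LMS, against 15.7 to 23.03 FPKM in LM. For Ppbp, the log2 change was -3.77 (adjusted p = 0.00967). Neither was called in LMS 2 and LMS 5 alone (adjusted p = 0.0803 and 0.165). Ccl19, of T zone stroma, was at 0, 0, 0.0359, 0, 0 and 0.00857 FPKM in LMS 1 to 6, against 3.69, 6.40 and 5.13 FPKM in LM 1 to 3. Ccl19 differed by -3.43 in log2 (adjusted p = 1.4e-04). Cxcl1 was at 0 to 0.286 FPKM in LMS, against 0.0506 to 0.167 FPKM in LM. Cxcl3 was at 0 to 0.0745 FPKM in LMS, against 0.0482 to 0.499 FPKM in LM. Ccl12 was listed at 0 in all LMS libraries, against 0.0398 to 0.181 FPKM in LM. These 3 were under the level tested. None of 17 chemokine receptors was called by limma (0 with an unadjusted p under 0.05), 1 was called higher in LMS 1, 3, 4 and 6 and 4 in LMS 2 and LMS 5.

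Acute-phase genes and targets of IL-17 had the largest share of falls among the pathway lists, 15 of 20 tested and none higher, with a median log2 fold change of -1.76. In LMS 1, 3, 4 and 6 there were 17 falls, in LMS 2 and LMS 5 there were 11, and 9 genes were called in all 3 fits. Cebpb and Cebpd are transcription factors of the acute-phase response. Cebpb was at 7.61 to 14.3 FPKM in LMS, against 21.1 to 22.4 FPKM in LM (log2 change -0.89, adjusted p = 0.00367), and Cebpd was at 3.72 to 4.47 FPKM in LMS, against 6.16 to 6.85 FPKM in LM (log2 change -0.61, adjusted p = 1.4e-04). Lcn2, the siderophore-binding lipocalin, was at 4.30, 21.2, 3.95, 4.53, 23.8 and 6.56 FPKM in LMS 1 to 6, against 86.01, 118 and 94.0 FPKM in LM 1 to 3. Lcn2 differed by -3.53 ± 0.73 in log2 (SE, adjusted p = 0.00219). Within LMS, Lcn2 was highest in LMS 2 and LMS 5, where it was not called on their own (adjusted p = 0.053). The others that fell were Saa3, Csf3, Ccl7, Ptgs2, Nfkbiz, Fosl1, S100a8, S100a9, Mmp8, Tnfaip3, Il6 and Cxcl2.

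Enzymes that make lipid mediators, nitric oxide and itaconate fell together with Ptgs2, 5 of 14 tested, and 1 rose. Nos2, the inducible nitric oxide synthase, was at 2.80, 0.0859, 2.44, 2.40, 0.0933 and 2.61 FPKM in LMS 1 to 6, against 20.8, 20.1 and 21.4 FPKM in LM 1 to 3. Nos2 had a log2 change of -3.59 ± 0.62 (SE, adjusted p = 5.3e-04). Irg1 (Acod1), which makes itaconate, was at 2.78, 0.392, 2.97, 2.22, 0.334 and 3.20 FPKM in LMS 1 to 6, against 33.03, 31.5 and 32.1 FPKM in LM 1 to 3. For Irg1, the log2 change was -3.96 ± 0.50 (SE, adjusted p = 3.5e-05). Ptges, which acts after Ptgs2, was at 0.121 to 0.401 FPKM in LMS, against 1.32 to 1.52 FPKM in LM. Ptges differed by -1.26 ± 0.14 in log2 (SE, adjusted p = 1.4e-05). For Nos2 and Irg1 the order of the sets was the same, LMS 2 and LMS 5 lowest, then the other LMS libraries, then LM. Odc1, the first enzyme of polyamine synthesis, was the fifth that fell, at 58.6 to 77.9 FPKM in LMS, against 118 to 128 FPKM in LM. Odc1 had a log2 change of -0.94 (adjusted p = 0.0056). Ptgs1, the constitutive cyclooxygenase, rose to 7.39 to 9.93 FPKM in LMS, against 5.74 to 6.90 FPKM in LM. For Ptgs1, the log2 change was 0.47 (adjusted p = 0.0155). Calls were lost for Odc1 in LMS 2 and LMS 5 alone (adjusted p = 0.0686) and, without single libraries, for Ptgs1 (2 of 9, up to 0.09 without LM 1).

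Of 18 NF-kB genes, the 4 called were all inhibitors or modulators of the pathway, and all fell. Nfkbia, which holds NF-kB in the cytoplasm, was at 37.6, 48.2, 40.9, 40.6, 49.5 and 43.1 FPKM in LMS 1 to 6, against 126, 122 and 121 FPKM in LM 1 to 3. Nfkbia differed by -1.5002 ± 0.15 in log2 (SE, adjusted p = 2.9e-06). Nfkbiz, a nuclear cofactor of NF-kB, was at 4.09, 7.71, 3.61, 5.83, 4.88 and 4.38 FPKM in LMS 1 to 6, against 24.8, 24.7 and 24.5 FPKM in LM 1 to 3. Nfkbiz had a log2 change of -2.21 ± 0.30 (SE, adjusted p = 7.5e-05). Tnip1 was at 12.4, 18.4, 12.04, 11.2, 16.5 and 11.8 FPKM in LMS 1 to 6, against 29.6, 27.3 and 28.9 FPKM in LM 1 to 3. For Tnip1, the log2 change was -1.06 ± 0.20 (SE, adjusted p = 0.00106). Tnfaip3 (A20), a ubiquitin editing enzyme that Tnip1 binds, was at 4.74, 12.7, 6.14, 5.65, 12.5 and 4.99 FPKM in LMS 1 to 6, against 20.1, 21.8 and 19.9 FPKM in LM 1 to 3. Tnfaip3 differed by -1.46 ± 0.41 in log2 (SE, adjusted p = 0.017), and its call was lost in LMS 2 and LMS 5 alone (adjusted p = 0.235) and without any single LM library (up to 0.0655 without LM 2). Tnf, a cytokine under NF-kB, was at 22.7, 4.70, 23.8, 21.6, 3.98 and 23.7 FPKM in LMS 1 to 6, against 29.0, 28.1 and 29.5 FPKM in LM 1 to 3. Tnf had a log2 change of -1.09 ± 0.58 (SE, adjusted p = 0.218) and did not pass the test, while in LMS 2 and LMS 5 alone its adjusted p was 0.00193.

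Promoters of 4 of these genes are shown because their RNA fell in all 6 LMS libraries and because they hold a short motif of a factor named above. They are the 250 bases before the start in RefSeq (GRCm38.p6), in the direction of the gene, with capitals for matches on either strand to a core of NF-kB sites (GGG and TTCC with any 3 bases between them) or to TTGCNNAA, a core of C/EBP sites.
Saa3, chr7:46715677-46715926, minus strand: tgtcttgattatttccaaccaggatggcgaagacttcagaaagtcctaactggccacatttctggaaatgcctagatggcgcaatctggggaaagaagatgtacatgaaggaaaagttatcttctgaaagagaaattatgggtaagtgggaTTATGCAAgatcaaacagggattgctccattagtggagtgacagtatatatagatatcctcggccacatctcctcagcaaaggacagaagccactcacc
Ptgs2, chr1:150099781-150100030, plus strand: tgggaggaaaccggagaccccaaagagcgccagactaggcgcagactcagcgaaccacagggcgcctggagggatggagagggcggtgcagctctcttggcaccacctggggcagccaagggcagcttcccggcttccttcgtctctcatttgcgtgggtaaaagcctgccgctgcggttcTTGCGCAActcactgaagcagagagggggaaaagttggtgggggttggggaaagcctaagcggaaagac
Cxcl2, chr5:90903649-90903898, plus strand: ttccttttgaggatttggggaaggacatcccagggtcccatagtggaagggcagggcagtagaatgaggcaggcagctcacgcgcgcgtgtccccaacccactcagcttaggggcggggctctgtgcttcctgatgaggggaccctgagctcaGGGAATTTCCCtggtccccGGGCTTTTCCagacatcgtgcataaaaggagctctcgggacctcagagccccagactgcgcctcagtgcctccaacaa
Nfkbia, chr12:55492648-55492897, minus strand: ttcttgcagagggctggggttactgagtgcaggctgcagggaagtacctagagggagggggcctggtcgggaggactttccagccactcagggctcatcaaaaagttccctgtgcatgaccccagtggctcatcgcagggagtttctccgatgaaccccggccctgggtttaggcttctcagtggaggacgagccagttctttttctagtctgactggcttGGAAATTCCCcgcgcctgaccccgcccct
Saa3 and Ptgs2 each had 1 match to TTGCNNAA, Nfkbia had 1 match to the NF-kB core, and Cxcl2 had 3, of which 2 overlap on opposite strands. The same search found no match for Wfdc17, Irg1, Atf3 and Ddit3, which fell too. For Il1rn it found a match to the NF-kB core before only some of its starts. The NF-kB core was found for 5.31% of all 27025 RefSeq genes with an entry and TTGCNNAA for 10.8%. Of the 908 genes that fell, 716 had an entry, and 8.80% of these held the NF-kB core and 10.3% TTGCNNAA. Of the 1525 that rose, 1216 had an entry, with 4.93% and 8.80%, and of the 11436 genes tested, 9021 had one, with 6.29% and 9.12%. Such a match is a description of letters and does not show that a factor binds.

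Immediate early factors and MAPK phosphatases, which answer signals within minutes, fell in 10 of 24 cases, and none rose. Gadd45b, a stress gene under NF-kB, was at 11.6, 10.1, 12.6, 13.6, 8.31 and 14.5 FPKM in LMS 1 to 6, against 46.4, 42.5 and 50.3 FPKM in LM 1 to 3. For Gadd45b, the log2 change was -1.95 ± 0.13 (SE, adjusted p = 6.5e-08). Egr1, a zinc finger factor, was at 13.997, 13.3, 15.99, 15.5, 13.97 and 17.4 FPKM in LMS 1 to 6, against 30.4, 32.2 and 28.4 FPKM in LM 1 to 3. Egr1 differed by -0.995 ± 0.12 in log2 (SE, adjusted p = 1.9e-05). Dusp4, a phosphatase of ERK and JNK, was at 7.15, 2.09, 6.42, 6.16, 1.87 and 5.90 FPKM in LMS 1 to 6, against 19.5, 17.7 and 19.1 FPKM in LM 1 to 3. Dusp4 had a log2 change of -1.97 ± 0.39 (SE, adjusted p = 0.00152). Fosl1, an AP-1 subunit, was at 0.309 to 1.41 FPKM in LMS, against 2.82 to 3.32 FPKM in LM. For Fosl1, the log2 change was -1.48 (adjusted p = 7.6e-04). Gadd45g was at 2.91 to 3.82 FPKM in LMS, against 6.65 to 7.45 FPKM in LM. Gadd45g differed by -0.92 in log2 (adjusted p = 3.2e-04). The small MAF factor Maff was at 0.546 to 2.40 FPKM in LMS, against 4.58 to 4.71 FPKM in LM. Maff had a log2 change of -1.44 (adjusted p = 0.0056). Egr1 was alike in all LMS libraries, while Dusp4, Fosl1 and Maff were lowest in LMS 2 and LMS 5. The other 4, Jun, Atf3, Fosb and Dusp5, had adjusted p between 0.0366 and 0.0471 and lost their call with the replicate block and without single libraries, as Jun (6 of 9, up to 0.14 without LM 2), Atf3 (5 of 9, up to 0.129 without LM 1), Fosb (7 of 9, up to 0.138 without LM 2) and Dusp5 (7 of 9, up to 0.142 without LM 2). With the block, 6 of the 24 fell.

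In the unfolded protein and integrated stress response, 6 of 24 genes fell and 1 rose. Ddit3 (CHOP), a factor induced by ATF4, was at 6.49, 9.87, 10.4, 10.7, 10.9 and 10.4 FPKM in LMS 1 to 6, against 58.5, 56.9 and 63.03 FPKM in LM 1 to 3. For Ddit3, the log2 change was -2.56 ± 0.14 (SE, adjusted p = 4.0e-09). Atf4, the central factor of the integrated stress response, was at 92.4, 71.9, 90.1, 89.5, 69.0 and 91.9 FPKM in LMS 1 to 6, against 149, 142 and 144 FPKM in LM 1 to 3. Atf4 differed by -0.79 ± 0.10 in log2 (SE, adjusted p = 3.3e-05). Trib3, a pseudokinase downstream of both, was at 1.69, 0.378, 1.98, 1.73, 0.650 and 2.11 FPKM in LMS 1 to 6, against 6.92, 6.58 and 5.94 FPKM in LM 1 to 3. Trib3 had a log2 change of -1.97 ± 0.33 (SE, adjusted p = 3.9e-04). Sesn2 was at 4.64 to 5.63 FPKM in LMS, against 6.92 to 7.53 FPKM in LM. For Sesn2, the log2 change was -0.43 (adjusted p = 0.00126). Ddit4 fell to 9.13 to 12.7 FPKM in LMS, against 17.8 to 19.4 FPKM in LM. Ddit4 differed by -0.79 in log2 (adjusted p = 0.0192) and lost its call with the block (adjusted p = 0.0739) and without any single LM library (up to 0.0738 without LM 3). The sixth that fell was Atf3, given above. Dnajc3, a chaperone that inhibits the kinase PERK, rose to 14.6 to 20.4 FPKM in LMS, against 10.03 to 10.8 FPKM in LM. Dnajc3 had a log2 change of 0.61 ± 0.13 (SE, adjusted p = 0.00203). In LMS 2 and LMS 5 alone 13 of the 24 fell, in LMS 1, 3, 4 and 6 it was 6.

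Metallothioneins and genes of iron handling fell in 8 of 14 cases and none rose, with a median of -1.47. Fth1 and Ftl1, the ferritin chains, fell. Fth1 was at 1439, 890.1, 1433, 1435, 912 and 1432 FPKM in LMS 1 to 6, against 3741, 3505 and 3732 FPKM in LM 1 to 3. For Fth1, the log2 change was -1.57 ± 0.23 (SE, adjusted p = 1.3e-04). Ftl1 was at 2098, 1030.2, 2168, 2082, 985 and 2148 FPKM in LMS 1 to 6, against 3769, 3553 and 3796 FPKM in LM 1 to 3. Ftl1 differed by -1.16 ± 0.31 in log2 (SE, adjusted p = 0.0134). Hmox1, which frees iron from heme, was at 62.4, 125, 65.8, 66.5, 123 and 70.2 FPKM in LMS 1 to 6, against 284, 266 and 269 FPKM in LM 1 to 3. Hmox1 had a log2 change of -1.74 ± 0.25 (SE, adjusted p = 1.3e-04). Slc11a1, the metal transporter of phagosomes, was at 9.93, 10.9, 11.2, 10.496, 10.2 and 11.2 FPKM in LMS 1 to 6, against 36.7, 35.9 and 32.7 FPKM in LM 1 to 3. For Slc11a1, the log2 change was -1.67 ± 0.10 (SE, adjusted p = 1.2e-08). In Hmox1 the 2 sets of LMS stood in the opposite order to ferritin, with LMS 2 and LMS 5 higher than the other 4. Cp (ceruloplasmin), a ferroxidase, was at 0.323 to 0.961 FPKM in LMS, against 4.88 to 5.08 FPKM in LM. Cp differed by -2.34 in log2 (adjusted p = 1.0e-07). Mt2, a metallothionein, was at 7.89 to 38.6 FPKM in LMS, against 262 to 288 FPKM in LM. Mt2 had a log2 change of -3.58 (adjusted p = 0.00363). Slc11a2 was at 8.33 to 10.49 FPKM in LMS, against 15.9 to 19.2 FPKM in LM. For Slc11a2, the log2 change was -0.90 (adjusted p = 5.7e-04). Lcn2 is the eighth. The call of Ftl1 was lost without LM 1 and without LM 3 (adjusted p up to 0.0536). The same list gave 9 falls in each subset and 7 genes in all 3 fits.

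Complement genes were lower in 7 of 18 cases and higher in 1. Itgam (CD11b), the alpha chain of complement receptor 3, was at 22.5, 9.91, 21.99, 22.6, 10.47 and 22.2 FPKM in LMS 1 to 6, against 95.4, 90.1 and 93.7 FPKM in LM 1 to 3. Itgam differed by -2.40 ± 0.28 in log2 (SE, adjusted p = 1.6e-05). Cfb and Cfp act in the alternative pathway. Cfb was at 0.419 to 2.58 FPKM in LMS, against 8.53 to 9.64 FPKM in LM (log2 change -2.65, adjusted p = 5.9e-04). Cfp was at 33.7 to 39.9 FPKM in LMS, against 66.5 to 68.01 FPKM in LM (log2 change -0.86, adjusted p = 5.5e-05). C3ar1, the receptor of C3a, was at 0.211 to 4.22 FPKM in LMS, against 11.3 to 12.5 FPKM in LM. C3ar1 differed by -2.46 in log2 (adjusted p = 0.0109). C3 was at 1.29, 12.1, 1.499, 1.41, 10.7 and 1.51 FPKM in LMS 1 to 6, against 14.2, 19.1 and 16.2 FPKM in LM 1 to 3, with LMS 2 and LMS 5 nearest to LM. It fell (log2 change -2.26, adjusted p = 0.0298), and the call was lost in 7 of 9 leave-one-out fits (up to 0.104 without LM 2). C4b was at 0.225 to 1.38 FPKM in LMS, against 2.62 to 4.13 FPKM in LM (log2 change -1.79, adjusted p = 0.00409). C1s1 was at 0 to 0.751 FPKM in LMS, against 1.78 to 3.07 FPKM in LM (log2 change -1.97, adjusted p = 0.00615). Neither was called in LMS 2 and LMS 5 alone (adjusted p = 0.0774 and 0.104). The gene that rose, Cr1l (Crry), a regulator that protects cells from complement, was at 26.5, 32.9, 24.4, 21.5, 39.4 and 26.0 FPKM in LMS 1 to 6, against 13.1, 14.6 and 17.005 FPKM in LM 1 to 3. Cr1l differed by 0.89 ± 0.19 in log2 (SE, adjusted p = 0.00275).

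Lysosomal proteins fell in 4 of 20 cases, none rose, and 12 of the 20 had all LMS libraries below all LM libraries. Over all genes tested, 7.94% fell and 13.6% lay below LM without overlap. Ctsd, an aspartic protease, was at 228, 127, 232, 223, 124 and 229.8 FPKM in LMS 1 to 6, against 661, 616 and 646 FPKM in LM 1 to 3. Ctsd had a log2 change of -1.77 ± 0.24 (SE, adjusted p = 6.3e-05). Ctsb was at 117 to 185 FPKM in LMS, against 371 to 402 FPKM in LM. For Ctsb, the log2 change was -1.31 ± 0.21 (SE, adjusted p = 2.3e-04). The cholesterol carrier Npc2 was at 32.9 to 54.7 FPKM in LMS, against 86.5 to 89.1 FPKM in LM. Npc2 differed by -0.94 ± 0.16 in log2 (SE, adjusted p = 4.0e-04). The summed level of the list was 1312 and 1306 FPKM in LMS 2 and LMS 5, 2669 to 2709 FPKM in the other LMS libraries and 3678 to 3878 FPKM in LM.

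Of 16 genes of lipid-associated macrophages, 2 fell and 1 rose, against 7.94% and 13.3% of all genes tested. In 7 of the 16 all LMS libraries lay below all LM libraries and in 1 above, against 13.6% and 19.2% of all genes. LMS 2 and LMS 5 alone gave 10 falls and 3 rises, with a median of -2.24. LMS 1, 3, 4 and 6 gave 2 falls and 1 rise, with a median of -0.57. Cd36, a scavenger receptor, was at 31.1, 41.9, 29.4, 31.95, 41.7 and 29.7 FPKM in LMS 1 to 6, against 126, 118 and 120.2 FPKM in LM 1 to 3. For Cd36, the log2 change was -1.82 ± 0.15 (SE, adjusted p = 6.5e-07). Plin2, which coats lipid droplets, was at 12.3 to 25.1 FPKM in LMS, against 40.2 to 42.7 FPKM in LM. Plin2 differed by -1.07 ± 0.24 in log2 (SE, adjusted p = 0.00427). Abcg1, which exports cholesterol, rose to 18.3, 15.8, 17.4, 16.9, 15.7 and 17.97 FPKM in LMS 1 to 6, against 10.2, 10.2 and 9.76 FPKM in LM 1 to 3. Abcg1 had a log2 change of 0.73 ± 0.08 (SE, adjusted p = 6.4e-06). Spp1 (osteopontin) ranged widely, at 889, 0.246, 891, 856, 0.310 and 831 FPKM in LMS 1 to 6, against 6642, 6178 and 6461 FPKM in LM 1 to 3. Its log2 fold change of -6.26 was larger in size than that of any called gene and did not pass the test over all 6 libraries (adjusted p = 0.1), with -2.89 in LMS 1, 3, 4 and 6 (adjusted p = 0.247) and -13.01 in LMS 2 and LMS 5 (adjusted p = 0.00112). Of 12 genes of red pulp and marginal zone macrophages, Hmox1, given above, and Siglec1 fell and none rose, with a median of -0.02. In LMS 2 and LMS 5 alone 2 fell and 1 rose, with a median of 1.48. Siglec1, of marginal metallophilic macrophages, was at 1.18 to 3.03 FPKM in LMS, against 7.19 to 7.64 FPKM in LM. For Siglec1, the log2 change was -1.88 ± 0.21 (SE, adjusted p = 1.1e-05). The scavenger receptor Stab1, which is not in this list, was at 0.338 to 0.911 FPKM in LMS, against 2.71 to 3.19 FPKM in LM. Stab1 differed by -1.60 ± 0.17 in log2 (SE, adjusted p = 5.5e-06). Adgre1 (F4/80) was at 14.7 to 31.5 FPKM in LMS, against 40.2 to 43.8 FPKM in LM. Adgre1 had a log2 change of -0.799 (adjusted p = 0.0304), and this call was lost without LMS 5 and without any single LM library (up to 0.103 without LM 1). Of the 14 macrophage markers, 4 fell and none rose, and the 4 were Itgam, Fcgr1, Adgre1 and Fcgr3. Fcgr1 was at 1.75 to 9.15 FPKM in LMS, against 18.6 to 21.05 FPKM in LM. For Fcgr1, the log2 change was -1.78 (adjusted p = 0.0273). Fcgr3 was at 9.84 to 11.9 FPKM in LMS, against 14.5 to 16.9 FPKM in LM. Fcgr3 differed by -0.4997 in log2 (adjusted p = 0.0325), and without single libraries their calls were lost as Fcgr1 (3 of 9, up to 0.0956 without LM 3) and Fcgr3 (5 of 9, up to 0.131 without LM 2).

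Most neutrophil granule genes fell. Of 6 primary granule genes, made in promyelocytes, 5 fell with a median of -3.12, and all 5 were called in both subsets. Mpo, myeloperoxidase, was at 0.517, 5.27, 0.913, 1.32, 5.20 and 2.05 FPKM in LMS 1 to 6, against 20.2, 25.9 and 22.4 FPKM in LM 1 to 3. Mpo had a log2 change of -3.24 ± 0.59 (SE, adjusted p = 8.6e-04). Elane, neutrophil elastase, was at 0.224, 2.75, 0.848, 0.965, 2.93 and 1.30 FPKM in LMS 1 to 6, against 17.1, 18.5 and 14.2 FPKM in LM 1 to 3. For Elane, the log2 change was -3.28 ± 0.53 (SE, adjusted p = 2.9e-04). Prtn3 and Ctsg are further serine proteases. Prtn3 was at 0.258 to 2.44 FPKM in LMS, against 15.9 to 18.2 FPKM in LM (log2 change -3.60, adjusted p = 2.1e-05). Ctsg was at 0.283 to 1.08 FPKM in LMS, against 7.56 to 8.80 FPKM in LM (log2 change -2.99, adjusted p = 3.3e-06). Ms4a3, a marker of granulocyte and monocyte progenitors, was at 0.120 to 0.543 FPKM in LMS, against 3.37 to 4.47 FPKM in LM. For Ms4a3, the log2 change was -2.51 (adjusted p = 1.5e-06). Of 14 secondary and tertiary granule genes 11 fell, all 14 in LMS 1, 3, 4 and 6 and 2 in LMS 2 and LMS 5. Ltf (lactoferrin) was at 2.38, 18.8, 3.83, 4.22, 19.04 and 5.41 FPKM in LMS 1 to 6, against 57.2, 68.9 and 57.5 FPKM in LM 1 to 3. Ltf differed by -3.11 ± 0.77 in log2 (SE, adjusted p = 0.00824). Camp (cathelicidin) was at 4.97 to 16.98 FPKM in LMS, against 56.6 to 67.1 FPKM in LM. Camp had a log2 change of -2.63 (adjusted p = 0.00469). The 2 called in LMS 2 and LMS 5 were Trem3 and Fcnb. Trem3 was at 2.30 to 3.38 FPKM in LMS, against 6.70 to 8.17 FPKM in LM. For Trem3, the log2 change was -1.32 (adjusted p = 3.5e-06). Fcnb was at 0.381 to 1.74 FPKM in LMS, against 5.23 to 6.27 FPKM in LM. Fcnb differed by -2.34 in log2 (adjusted p = 3.1e-04). Among 17 markers of mature neutrophils 6 fell. S100a8 and S100a9 are the subunits of calprotectin. S100a8 was at 32.9, 90.7, 52.9, 48.2, 119 and 70.2 FPKM in LMS 1 to 6, against 349.7, 434 and 375 FPKM in LM 1 to 3 (log2 change -2.60, adjusted p = 0.00666). S100a9 was at 87.9, 231, 129, 139.7, 228 and 184 FPKM in LMS 1 to 6, against 637, 715 and 629 FPKM in LM 1 to 3 (log2 change -2.06, adjusted p = 0.0158). Trem1 was at 0.489 to 1.07 FPKM in LMS, against 4.16 to 4.71 FPKM in LM. Trem1 differed by -1.92 in log2 (adjusted p = 0.00124). Stfa2, which has near-identical copies, was at 0 to 0.174 FPKM in LMS, against 1.44 to 2.02 FPKM in LM. Stfa2 had a log2 change of -2.05 (adjusted p = 1.9e-06). The call of S100a9 was lost without any single LM library (up to 0.0619 without LM 2).

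Of 10 markers of splenic stroma and endothelium 5 fell. Pdpn (podoplanin) was at 0.0579, 0, 0.0776, 0.0501, 0 and 0.0629 FPKM in LMS 1 to 6, against 8.37, 7.42 and 7.72 FPKM in LM 1 to 3. For Pdpn, the log2 change was -3.95 ± 0.10 (SE, adjusted p = 5.3e-14). The collagen gene Col1a2 was at 0.0207 to 0.361 FPKM in LMS, against 2.17 to 2.47 FPKM in LM. Col1a2 differed by -2.18 in log2 (adjusted p = 0.00239). The other 3 were Ccl19, Ccl21a and Cxcl13. Pdpn is also made by activated macrophages, and was at 7.31 to 8.61 FPKM in LMA. Of 7 basophil and mast cell genes, 2 fell and none rose, with a median of -0.58, while LMS 2 and LMS 5 alone gave 2 falls and 2 rises and a median of 0.35. The 2, Prss34 and Mcpt8, are proteases of basophils. Prss34 was at 0.214 to 1.20 FPKM in LMS, against 4.21 to 4.75 FPKM in LM (log2 change -2.40, adjusted p = 1.3e-05). Mcpt8 was at 0.221 to 2.40 FPKM in LMS, against 4.92 to 5.60 FPKM in LM (log2 change -2.30, adjusted p = 0.00134). No T cell marker of 17, B cell marker of 16 or erythroid gene of 13 was called by limma over all 6 libraries. An unadjusted p under 0.05 was found in 0, 0 and 0 of them in that order. In LMS 2 and LMS 5, 9 erythroid genes were called higher, and no T cell or B cell marker was called. The median log2 fold change there was still 2.02 for T cell and 2.40 for B cell markers. A missing call therefore does not show equal levels. Of 8 plasma cell genes Sdc1 (CD138) fell, at 4.41 to 5.48 FPKM in LMS, against 9.92 to 11.6 FPKM in LM. Sdc1 differed by -1.08 in log2 (adjusted p = 2.0e-04). Of 14 NK genes Gzma rose, and its call was lost in LMS 1, 3, 4 and 6 alone (adjusted p = 0.135). None of the 14 was called in LMS 1, 3, 4 and 6, on the TPM scale or with the median of ratios, and 8 were called higher in LMS 2 and LMS 5.

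The 10 called genes with the largest rises and no overlap are shown next, with Tlr7 in the paragraph after. Itga4, the alpha 4 integrin chain that binds VCAM1, was at 233, 57.5, 219.8, 226, 59.1 and 215 FPKM in LMS 1 to 6, against 26.7, 25.6 and 26.1 FPKM in LM 1 to 3. Itga4 had a log2 change of 2.43 ± 0.50 (SE, adjusted p = 0.00224). All 6 LMS libraries stood above LM, LMS 2 and LMS 5 by the smaller step. Lpar5, a receptor of lysophosphatidic acid, was at 6.86, 6.54, 4.48, 5.62, 6.75 and 5.43 FPKM in LMS 1 to 6, against 0.741, 1.29 and 0.925 FPKM in LM 1 to 3. For Lpar5, the log2 change was 2.12 ± 0.32 (SE, adjusted p = 1.9e-04). Mbnl1, a splicing regulator, was at 68.3, 62.8, 49.3, 79.6, 111 and 60.1 FPKM in LMS 1 to 6, against 21.01, 17.7 and 21.9 FPKM in LM 1 to 3. Mbnl1 differed by 1.76 ± 0.28 in log2 (SE, adjusted p = 2.9e-04). Ap5b1, a subunit of the adaptor complex AP-5 of late endosomes, was at 5.22, 4.38, 4.89, 5.74, 4.43 and 4.74 FPKM in LMS 1 to 6, against 1.30, 1.27 and 1.13 FPKM in LM 1 to 3. Ap5b1 had a log2 change of 1.63 ± 0.12 (SE, adjusted p = 1.0e-07). Stx2, a syntaxin of membrane fusion, was at 22.4, 21.7, 21.8, 19.9, 22.8 and 19.3 FPKM in LMS 1 to 6, against 7.54, 6.74 and 7.31 FPKM in LM 1 to 3. For Stx2, the log2 change was 1.503 ± 0.30 (SE, adjusted p = 0.00154). Lpar5 and Stx2 did not separate the 2 sets of LMS. Fgd2, an exchange factor for CDC42, was at 12.2, 27.9, 14.1, 14.3, 30.1 and 17.1 FPKM in LMS 1 to 6, against 5.69, 6.66 and 4.90 FPKM in LM 1 to 3. Fgd2 differed by 1.59 ± 0.33 in log2 (SE, adjusted p = 0.00248). The zinc finger gene Zfp65 was at 5.07, 7.94, 5.36, 3.32, 6.64 and 3.89 FPKM in LMS 1 to 6, against 1.07, 2.75 and 1.28 FPKM in LM 1 to 3. Zfp65 had a log2 change of 1.44 ± 0.27 (SE, adjusted p = 9.0e-04). Gzma, granzyme A of NK cells and cytotoxic T cells, was at 10.6, 60.4, 16.5, 17.3, 64.2 and 22.4 FPKM in LMS 1 to 6, against 5.01, 4.97 and 3.28 FPKM in LM 1 to 3. For Gzma, the log2 change was 2.42 ± 0.83 (SE, adjusted p = 0.0477). Ube2v2, a cofactor of ubiquitin conjugation, was at 13.1, 9.85, 10.9, 12.7, 3.58 and 12.7 FPKM in LMS 1 to 6, against 2.78, 2.75 and 2.89 FPKM in LM 1 to 3. Ube2v2 differed by 1.63 ± 0.49 in log2 (SE, adjusted p = 0.0249). These 2 calls were lost with the replicate block (adjusted p = 0.0769 and 0.0882) and without single libraries, as Gzma (8 of 9, up to 0.163 without LM 3) and Ube2v2 (3 of 9, up to 0.081 without LM 1).

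**Figure D4:**
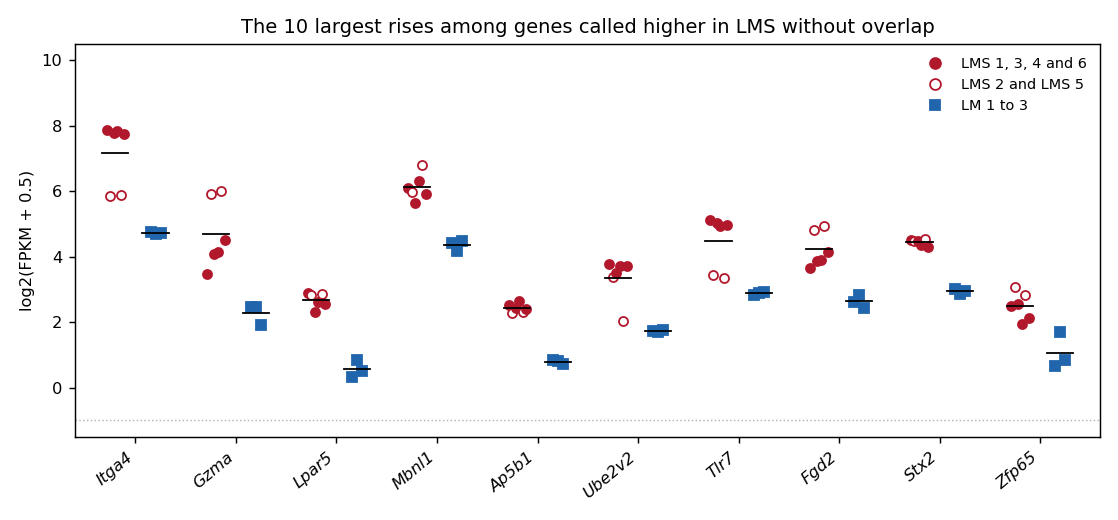
The 10 called genes with the largest rises among those with no overlap, as log2(FPKM + 0.5) in each LMS library (circles, LMS 2 and LMS 5 open) and each LM library (squares), with bars for group means on this scale and a dotted line at 0 FPKM. Itga4 and Tlr7 are highest in LMS 1, 3, 4 and 6, Gzma and Fgd2 are highest in LMS 2 and LMS 5, and Lpar5 and Stx2 overlap between the 2 sets.

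Toll-like receptors and their adaptors moved both ways, with 8 of 22 genes higher and 4 lower and a median of 0.48. Tlr7, which senses single-stranded RNA in endosomes, was at 34.4, 10.46, 31.9, 30.1, 9.79 and 31.1 FPKM in LMS 1 to 6, against 6.53, 6.95 and 7.05 FPKM in LM 1 to 3. Tlr7 had a log2 change of 1.60 ± 0.40 (SE, adjusted p = 0.00784). Tlr13, which senses bacterial ribosomal RNA in mice, was at 9.68, 5.75, 9.75, 9.98, 6.51 and 9.50 FPKM in LMS 1 to 6, against 2.94, 2.92 and 2.92 FPKM in LM 1 to 3. For Tlr13, the log2 change was 1.37 ± 0.21 (SE, adjusted p = 1.8e-04). Tlr13 was higher in both subsets, while Tlr7 was not called in LMS 2 and LMS 5 alone (adjusted p = 0.166). Irf5, a factor that acts downstream of Tlr7, was at 36.2, 41.8, 33.4, 33.7, 40.5 and 36.5 FPKM in LMS 1 to 6, against 19.2, 22.2 and 17.98 FPKM in LM 1 to 3. Irf5 differed by 0.89 ± 0.13 in log2 (SE, adjusted p = 1.7e-04). The ubiquitin ligase Traf6 was at 7.31, 7.57, 7.48, 7.19, 8.30 and 6.95 FPKM in LMS 1 to 6, against 4.36, 5.04 and 4.85 FPKM in LM 1 to 3. Traf6 had a log2 change of 0.602 ± 0.07 (SE, adjusted p = 2.8e-05). Irak1, a kinase between Myd88 and Traf6, was at 25.5 to 28.4 FPKM in LMS, against 17.99 to 20.7 FPKM in LM. For Irak1, the log2 change was 0.47 (adjusted p = 0.00459). Tirap, the adaptor that bridges TLR2 and TLR4 to Myd88, was at 4.70 to 7.44 FPKM in LMS, against 3.11 to 3.63 FPKM in LM. Tirap differed by 0.79 in log2 (adjusted p = 5.6e-04). Tlr6, which pairs with TLR2, was at 3.77 to 10.7 FPKM in LMS, against 3.27 to 3.56 FPKM in LM. Tlr6 had a log2 change of 0.86 (adjusted p = 0.0251). Irf7, the master factor of type I interferon, fell to 24.2, 21.7, 21.01, 26.9, 22.1 and 22.7 FPKM in LMS 1 to 6, against 59.5, 52.6 and 62.4 FPKM in LM 1 to 3. For Irf7, the log2 change was -1.32 ± 0.09 (SE, adjusted p = 4.3e-08). Ticam1 (TRIF), the adaptor of TLR3 and TLR4, fell to 6.66, 5.71, 6.93, 6.48, 6.04 and 6.46 FPKM in LMS 1 to 6, against 11.1, 10.8 and 12.4 FPKM in LM 1 to 3. Ticam1 differed by -0.79 ± 0.09 in log2 (SE, adjusted p = 1.3e-05). Irak2 was at 12.5 to 16.4 FPKM in LMS, against 18.7 to 20.3 FPKM in LM. Irak2 had a log2 change of -0.47 (adjusted p = 0.00638). Ly96 (MD-2), which binds lipopolysaccharide for TLR4, was at 3.83 to 6.38 FPKM in LMS, against 7.29 to 8.47 FPKM in LM. For Ly96, the log2 change was -0.55 (adjusted p = 0.0476). With the replicate block 6 rose, and the calls of Myd88 and Tlr6 were lost (adjusted p = 0.0559 and 0.0504). Ly96 and Tlr6 were not called in LMS 1, 3, 4 and 6 alone (adjusted p = 0.127 and 0.0629), and their calls were lost without single libraries, as Ly96 (7 of 9, up to 0.178 without LM 1) and Tlr6 (3 of 9, up to 0.0878 without LM 2).

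Transcripts of the mitochondrial genome rose in 7 of 13 cases and none fell, with a median of 0.46. mt-Nd4l, a subunit of complex I, was at 1109, 998, 1116, 1142, 995 and 1188 FPKM in LMS 1 to 6, against 650.3, 782 and 628 FPKM in LM 1 to 3. mt-Nd4l differed by 0.67 ± 0.11 in log2 (SE, adjusted p = 2.3e-04). mt-Nd1 was at 2746, 2135, 2781, 2951, 2137 and 3094 FPKM in LMS 1 to 6, against 1448, 1832 and 1405 FPKM in LM 1 to 3. mt-Nd1 had a log2 change of 0.75 ± 0.15 (SE, adjusted p = 0.00171). In both, LMS 2 and LMS 5 were the lowest of LMS and still above LM. On the TPM scale 4 rose and with the median of ratios 7, none fell under either, while LMS 2 and LMS 5 alone gave 6 rises and 1 fall. All genes of the mitochondrial genome, more than these 13, made up 6.99% and 6.96% of the FPKM in LMS 2 and LMS 5, 11.4% to 12.0% in the other LMS libraries and 8.31% to 9.59% in LM. The summed level of the 13 was 26779 and 26957 FPKM in LMS 2 and LMS 5, 38823 to 43048 FPKM in the other LMS libraries and 27580.4 to 32899.8 FPKM in LM. In this sum and in the share of all, LMS 2 and LMS 5 were thus below every LM library. In metabolism, 2 of 20 glycolytic genes fell and none rose, against 7.94% and 13.3% of all genes tested. Pfkfb3, which makes the activator of phosphofructokinase, was at 15.2, 7.96, 15.6, 14.05, 7.95 and 14.1 FPKM in LMS 1 to 6, against 43.97, 42.3 and 45.6 FPKM in LM 1 to 3. For Pfkfb3, the log2 change was -1.83 ± 0.22 (SE, adjusted p = 2.1e-05). The glucose transporter Slc2a1 was at 8.26 to 41.3 FPKM in LMS, against 94.2 to 105 FPKM in LM. Slc2a1 differed by -2.06 in log2 (adjusted p = 0.013), and its call was lost without LM 1 and without LM 3 (up to 0.0527). Of 17 cholesterol genes Dhcr7 and Fdft1 fell. Dhcr7 was at 3.27 to 8.21 FPKM in LMS, against 8.31 to 16.2 FPKM in LM. Dhcr7 had a log2 change of -0.99 (adjusted p = 0.00907). Fdft1 was at 6.89 to 18.8 FPKM in LMS, against 26.8 to 28.7 FPKM in LM. For Fdft1, the log2 change was -1.03 (adjusted p = 0.0496), with calls lost without single libraries as Dhcr7 (2 of 9, up to 0.0748 without LM 3) and Fdft1 (5 of 9, up to 0.142 without LM 3). In LMS 2 and LMS 5 alone 17 of the 20 glycolytic and all 17 cholesterol genes fell, against 2 and 1 in LMS 1, 3, 4 and 6.

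The targets of the antibodies did not pass the test. Ctla4 was at 0.958, 5.11, 1.004, 1.40, 5.30 and 1.93 FPKM in LMS 1 to 6, against 3.58, 3.60 and 3.14 FPKM in LM 1 to 3. Ctla4 differed by -0.58 ± 0.53 in log2 (SE, adjusted p = 0.514). Cd28 was at 1.53, 14.1, 1.53, 2.09, 14.98 and 2.36 FPKM in LMS 1 to 6, against 2.47, 3.33 and 3.07 FPKM in LM 1 to 3. Cd28 had a log2 change of 0.34 ± 0.72 (SE, adjusted p = 0.809). Both were above LM in LMS 2 and LMS 5 and below LM in LMS 1, 3, 4 and 6, and the summed T cell markers were too. Among 18 genes of the costimulation axis 1 rose and 2 fell. Havcr2 (TIM-3), an inhibitory receptor of T cells and myeloid cells, was at 4.96, 4.10, 4.68, 4.56, 3.81 and 4.18 FPKM in LMS 1 to 6, against 2.09, 2.63 and 2.29 FPKM in LM 1 to 3. For Havcr2, the log2 change was 0.78 ± 0.14 (SE, adjusted p = 6.5e-04). Cd274 (PD-L1) was at 1.56, 12.9, 1.98, 1.88, 11.9 and 1.95 FPKM in LMS 1 to 6, against 19.1, 18.4 and 19.3 FPKM in LM 1 to 3. Cd274 differed by -2.24 ± 0.67 in log2 (SE, adjusted p = 0.0262), with an adjusted p of 0.446 in LMS 2 and LMS 5 alone. Tnfrsf9 (4-1BB) was at 5.48, 2.82, 8.24, 4.82, 2.91 and 4.70 FPKM in LMS 1 to 6, against 9.30, 8.81 and 8.27 FPKM in LM 1 to 3. Tnfrsf9 had a log2 change of -0.88 ± 0.25 (SE, adjusted p = 0.0169). With the replicate block neither fall was called (adjusted p = 0.0518 and 0.0567), and without single libraries they were lost as Cd274 (3 of 9, up to 0.0848 without LM 3) and Tnfrsf9 (2 of 9, up to 0.0721 without LM 1).

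Apart from Il10, the RNA of cytokines that the study measured as proteins did not pass the test or was too low to be tested. Ifng was at 0.183, 2.44, 0.614, 0.509, 2.45 and 0.783 FPKM in LMS 1 to 6, against 0.772, 0.978 and 0.734 FPKM in LM 1 to 3. For Ifng, the log2 change was 0.11 ± 0.57 (SE, adjusted p = 0.926). Il4 was at 0.0838 to 0.968 FPKM in LMS, against 0.211 to 0.391 FPKM in LM. Il2 was at 0.0367 to 0.204 FPKM in LMS, against 0.0395 to 0.0691 FPKM in LM. Both were under the level tested. Tgfb1 was at 38.9, 73.98, 41.2, 41.4, 70.8 and 43.4 FPKM in LMS 1 to 6, against 56.0, 58.7 and 54.6 FPKM in LM 1 to 3. Tgfb1 differed by -0.18 ± 0.24 in log2 (SE, adjusted p = 0.688), again with LMS 2 and LMS 5 above and the other LMS libraries below LM. Tgfbr2, the signalling receptor of TGF-β, was the only 1 of 13 genes of that pathway called, at 35.4, 51.6, 35.4, 36.4, 54.0 and 36.04 FPKM in LMS 1 to 6, against 20.5, 21.98 and 20.4 FPKM in LM 1 to 3. Tgfbr2 had a log2 change of 0.94 ± 0.16 (SE, adjusted p = 4.3e-04), and it rose in both subsets. That count of 1 is for all 6 libraries. In LMS 2 and LMS 5 alone 7 of the 13 genes rose and 1 fell, with a median of 1.11. Over all genes tested 28.1% rose and 26.7% fell there. In LMS 1, 3, 4 and 6 there was 1 rise and no fall, with a median of 0.03. Of 12 T helper genes Bcl6, the factor of follicular helper T cells and germinal centre B cells, fell to 8.80, 12.6, 9.37, 9.92, 14.04 and 9.22 FPKM in LMS 1 to 6, against 20.7, 20.1 and 21.2 FPKM in LM 1 to 3. For Bcl6, the log2 change was -0.95 ± 0.15 (SE, adjusted p = 2.0e-04). Stat6, which acts downstream of IL-4, rose to 36.6 to 40.7 FPKM in LMS, against 31.3 to 32.4 FPKM in LM. Stat6 differed by 0.26 in log2 (adjusted p = 0.0363). This call was lost with the block (adjusted p = 0.0814) and, without single libraries, as Stat6 (6 of 9, up to 0.124 without LM 2).

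Antigen presentation and interferon genes gave few calls over all 6 LMS libraries. None of 11 MHC class II genes was called by limma (0 with an unadjusted p under 0.05), and their summed level was 4619 and 4572 FPKM in LMS 2 and LMS 5, 863 to 1409 FPKM in the other LMS libraries and 1316 to 1678 FPKM in LM. Erap1, which trims peptides for MHC class I, was the only 1 of 13 genes called in that list, at 21.6, 19.6, 22.8, 21.5, 19.1 and 21.8 FPKM in LMS 1 to 6, against 14.7, 14.5 and 14.2 FPKM in LM 1 to 3. Erap1 had a log2 change of 0.53 ± 0.07 (SE, adjusted p = 6.7e-05). Tcf4, a factor of plasmacytoid dendritic cells, was the only 1 of 13 dendritic cell genes called, at 21.9, 25.7, 21.9, 20.5, 25.03 and 16.6 FPKM in LMS 1 to 6, against 16.8, 14.8 and 16.3 FPKM in LM 1 to 3. For Tcf4, the log2 change was 0.43 ± 0.11 (SE, adjusted p = 0.012), and the call was lost without LM 2 (adjusted p = 0.0723). Of 23 type I interferon stimulated genes Irf7 alone was called, and of 20 genes of interferon-gamma and inducible GTPases Cd274 alone. In LMS 2 and LMS 5 alone 4 rose and 5 fell in the first list, and 4 rose and 1 fell in the second. Over all genes tested 28.1% rose and 26.7% fell there. The second list had a median of 1.48 in LMS 2 and LMS 5 and of -0.72 in LMS 1, 3, 4 and 6. None of 24 cell cycle genes was called by limma (2 with an unadjusted p under 0.05), although in 9 of them all LMS libraries were above all LM libraries. Over all genes tested that held for 19.2%.

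**Figure D5:**
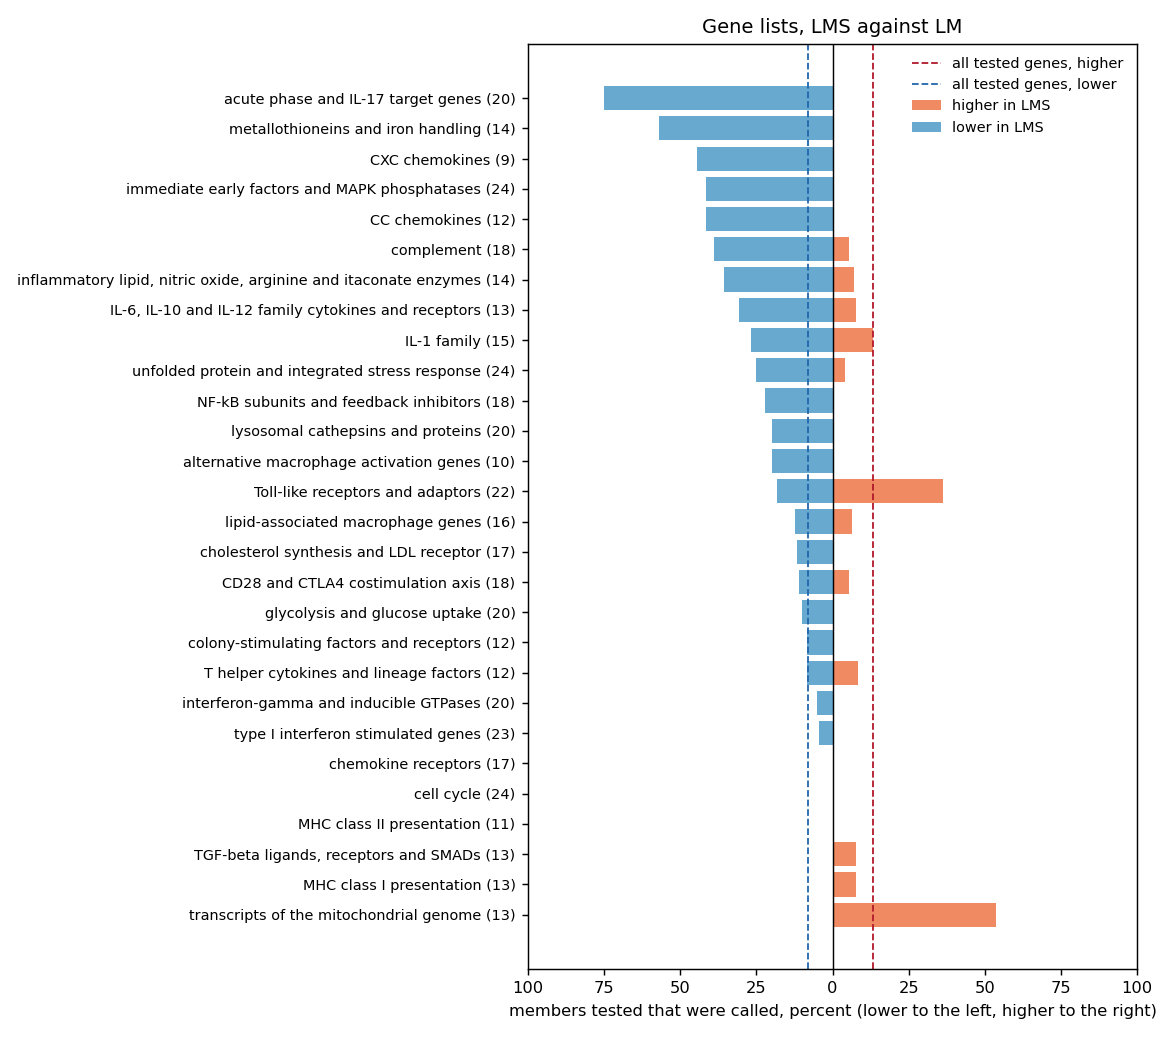
Share of the tested members of each pathway list (number tested in brackets) that was called lower in LMS (bars to the left, percent) or higher in LMS (bars to the right, percent), with dashed lines for all 11436 genes tested, 7.94% lower and 13.3% higher. Acute-phase genes, metallothioneins, chemokines, and immediate early factors with MAPK phosphatases lie farthest to the left. Toll-like receptors and mitochondrial transcripts lie farthest to the right.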

How the data were processed

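The authors sequenced RNA of splenocytes on an Illumina NovaSeq and deposited 1 abundance table per library, with FPKM per gene as estimated by them, not counts. The tables also give a coverage column, the mean depth per gene as deposited, which served here only to set the tables' depth side by side (5.21 to 7.92 gigabases in LMS and 6.59 to 7.43 in LM). The submitters' processing notes name mm10 and GATK 4.2, while aligner, quantifier and strand use were not given in the sources used here. A further column that the authors head TPM exceeds a TPM total in the deposited tables, so it was taken as a score and not used. Without counts, no counting interval could be given.

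Protein-coding genes (GENCODE M21) averaging 0.5 FPKM or more over the 18 libraries were fitted as log2(FPKM + 0.5) with limma 3.58.1 (R 4.3.3), with a trend and 4 groups, and LMS was contrasted with LM with Benjamini-Hochberg adjustment. The fit was first tested on simulated data, with normal values and the same spread of a gene in every group. That test does not cover the split within LMS or an uneven spread between groups. Members and gene lists were chosen with earlier results of these data known. Genes named are the antibody targets, the cytokines and chemokines the study names, the 10 called genes each way with the largest changes and no overlap, and from each list up to 4 genes with the smallest adjusted p and others where it is described. Alternatives were the pseudocount, filter, scaling, library weights, the 2 groups alone, a replicate block and leaving out libraries. Labels give LMS and LM shared numbers, and the deviations of same-numbered libraries correlated at 0.22, 0.43 and 0.24, and those of different number at -0.45 to 0.28, where LMS 1 with LM 3 exceeded LMS 1 with LM 1. The block was run as if it were a pairing because every same-numbered correlation was over 0.1, a hint from the data and not a stated batch. Libraries of different number correlated up to 0.28, so these values do not show a pairing. LMS 4 to 6 have no LM library of the same number. Some members of the lists are counted but not reported here by name.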

Additional observations from a re-analysis of the deposited data

Results flagged for a closer look

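In 7 genes described above or nearby, 1 LMS library stood apart from the other 5 by Dixon's criterion. Chance meets it in about 1 in 20 groups of normal values around a single mean. The check covered the 142 named genes that were tested by limma and further ones. The LMS libraries are split in many genes, and some flagged values are at or near 0. That rate therefore does not apply here, and nothing is concluded from the count of 7. Urah was at 0.0175 FPKM in LMS 6 and at 0 in the other LMS libraries. Ccl21a was at 1.05 FPKM in LMS 2, with 0.387 FPKM in the nearest library. Ube2v2 was at 3.58 FPKM in LMS 5, with 9.85 FPKM in the nearest. Ccl19 was at 0.0359 FPKM in LMS 3, with 0.00857 FPKM in the nearest. Ddit3 was at 6.49 FPKM in LMS 1, with 9.87 FPKM in the nearest. Prss34 was at 1.20 FPKM in LMS 5, with 0.562 FPKM in the nearest. Cxcl1 was at 0.286 FPKM in LMS 6, with 0.0874 FPKM in the nearest.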

How the results depend on the processing

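Among 22 alternatives, no called gene named in the text changed direction, and 92 of 135 kept their call in all. Genes called numbered 7930 (4749 higher, 3181 lower) with library weights, which gave LMS 2 and LMS 5 weights near 0.03 and whose estimation stopped before it converged, 6258 (3209 and 3049) without LMS 1, 3, 4 and 6, and 7658 (4613 and 3045) without LMS 2 and LMS 5 when LMS and LM were fitted alone, an alternative chosen after seeing the data. Genes without overlap numbered 7663 without LMS 2 and LMS 5 and 10054 without LMS 1, 3, 4 and 6. With the replicate block 1893 genes were called, 1872 of them also without it, and 16 named calls were lost. Leaving out single libraries gave 1625 to 2420 called genes (1018 to 1552 higher, 607 to 888 lower) and 3870 to 4249 without overlap. Named calls lost were 25 to 27 without a single LM library, 5 to 7 without a single LMS library and 27 without LMS 1, 3, 4 and 6. Of genes that did not pass the test, the log2 fold change turned to 0.54 for Ctla4 and 0.36 for Tgfb1 without LMS 1, 3, 4 and 6. For Cd28 it turned to -0.51 with library weights, -0.55 without LMS 2 and LMS 5 in either fit, and lay between -0.023 (without LMS 5) and 0.56 with single libraries left out. For Ifng it turned to -0.0063 on the TPM scale computed from FPKM, -0.34 with library weights, -0.41 without LMS 2 and LMS 5 in either fit, and lay between -0.10 and 0.32 with single libraries left out. The cause was not tested. FPKM without counts leave the precision of low genes unknown.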
